A study of Mus musculus with 44 samples.

Results

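The nuclear genes for subunits of the oxidative phosphorylation complexes were followed by day in mouse small-intestinal organoids treated with RANKL, with and without CSRM617. Members were the genes of the deposited count tables whose symbols start with Ndufa, Ndufb, Ndufc, Ndufs, Ndufv, Sdh, Uqcr, Cox4 to Cox8 or Atp5, without 2 pseudogene symbols and 12 assembly factors that share these prefixes. The rule used names only and no measured value. It found 82 genes of 21099 in the RANKL table and 77 of 9257 in the RANKL+CSRM617 table, and all 77 were in both. By symbol, 39 of the 82 belonged to complex I, 4 to complex II, 8 to complex III, 13 to complex IV and 18 to complex V. The 5 members outside the RANKL+CSRM617 table were Atp5o.1, Cox6b2, Ndufa11b, Ndufa4l2 and Ndufs5. Ndufa11b is annotated as a processed pseudogene, but the rule kept it by its symbol. Ndufa4 was placed in complex I by its symbol, although its protein is known as a subunit of complex IV.

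Oxidative phosphorylation takes place in the inner mitochondrial membrane. Complex I accepts electrons from NADH and complex II accepts them from succinate. Complex III passes them to cytochrome c and complex IV hands them to oxygen. Complex V uses the proton gradient to make ATP. Most subunits are encoded in the nucleus and a few in the mitochondrial genome. The tables held 0 genes encoded in mitochondria, so the nuclear share alone was measured. In intestinal epithelium, absorptive enterocytes are known to be rich in mitochondria. The cytokine RANKL is used in culture to bring about M cells, which sample antigens over lymphoid follicles, and CSRM617 is a small molecule that inhibits ONECUT2, a transcription factor.

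The organoids came from 1 female Lgr5GFPDTR/+ mouse (a line labelled line26 wild type, in which an Lgr5 allele carries GFP and the diphtheria toxin receptor), so every group shares this allele and this donor. All groups had 3 days of 3 µM CHIR99021 and 1.5 mM valproic acid and 1 day of plain ENR medium before day 0. The RANKL+CSRM617 arm then had 100 ng/mL RANKL with 40 µM CSRM617 and gave 14 plates, 2 a day from day 0 to day 6. The RANKL arm had 100 ng/mL RANKL alone and gave 30 plates, 3 a day from day 0 to day 9. Later days without RANKL were not analysed here, so RANKL, days in culture and the time since CHIR99021 and valproic acid cannot be told apart. The arms were separate sets of plates. The plate was the replicate, and as no label ties plates to separate cultures, p-values reflect plate-to-plate spread alone, and that spread may be technical.

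Kept cells numbered 24 to 223 per plate in the RANKL+CSRM617 arm (1673 in all) and 26 to 282 in the RANKL arm (6558), with 47976 to 835772 UMIs per plate in the RANKL+CSRM617 arm and 155940 to 1640523 in the RANKL arm. The most abundant gene model, CT010467.1, is annotated as ribosomal RNA (GRCm38, chr17:39846353-39848827, minus strand). It took 4.02% to 32.2% of plate UMIs in the RANKL+CSRM617 arm and 2.60% to 24.1% in the RANKL arm, so summed levels are given without it unless stated. Both ends of the RANKL+CSRM617 range were its 2 day 0 plates. All 37 pairs of same-day plates showed differences above counting noise (chi-square per gene 2.43 to 27.1), and 0 wells held identical counts. The highest value, 27.1, was that of the 2 RANKL+CSRM617 day 0 plates, against which the changes of that arm are set. The chi-square counted the rRNA gene model too, whose share differed widely between these 2 plates. Its part in the value was not tested. The smallest plate of the RANKL arm, with 26 cells, was replicate 2 of day 0, and without it 64 members were called lower on day 6 in place of the 71 given below. Leaving out any 1 plate of these days gave 59 to 68, the lowest without replicate 1 of day 0 (229 cells). Markers of immune, stromal and endothelial cells summed to 4.93 CPM on RANKL day 6 and 0.961 CPM on RANKL day 0 over the 7 measured, with 3 and 5 of them at 0.

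Promoters of 1 called member of each complex are shown first, because the members are known targets of a small set of transcription factors. The part of these factors in the changes below was not tested. Each was the called member with the largest fall on day 6 of RANKL, and a mean log2 CPM of at least 5, that had a single promoter in the table with a match to one of 3 motifs, those of NRF1 (GCGCA, any 1 base, then GCGC), ETS factors such as GABP (CCGGAAG) and YY1 (AAGATGGC). Both strands were searched, together with an estrogen-related receptor (ERR) motif (TCAAGGTCA) and a GC box (GGGCGG), and capitals mark all matches. The rule passed over members with larger falls. Among them, Atp5g1 had no match to any of these motifs, and no promoter was found for Uqcrq. Ndufv3, Cox5a and Cox7a2 matched only the GC box. The sequences are from RefSeq, build GRCm38.p6, and run from 250 bases before to 50 bases after the transcription start on the strand of the gene.
Ndufs8 (complex I, iron-sulphur subunit; chr19:3912725-3913024, minus strand; ETS match): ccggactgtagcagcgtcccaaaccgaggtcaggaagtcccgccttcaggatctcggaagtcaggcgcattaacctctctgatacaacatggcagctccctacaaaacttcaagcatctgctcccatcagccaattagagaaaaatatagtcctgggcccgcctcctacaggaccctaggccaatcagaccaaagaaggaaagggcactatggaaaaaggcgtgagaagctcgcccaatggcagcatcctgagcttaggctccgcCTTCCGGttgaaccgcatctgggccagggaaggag
Sdhb (complex II, iron-sulphur subunit; chr4:140961021-140961320, plus strand; ETS match and GC boxes): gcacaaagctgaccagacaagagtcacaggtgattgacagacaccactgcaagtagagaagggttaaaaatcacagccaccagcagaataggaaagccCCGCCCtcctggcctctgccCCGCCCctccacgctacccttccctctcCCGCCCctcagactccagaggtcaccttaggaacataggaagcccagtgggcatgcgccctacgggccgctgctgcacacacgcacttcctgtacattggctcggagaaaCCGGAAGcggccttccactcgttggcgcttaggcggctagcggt
Uqcrc1 (complex III, core protein; chr9:108936398-108936697, plus strand; NRF1 matches): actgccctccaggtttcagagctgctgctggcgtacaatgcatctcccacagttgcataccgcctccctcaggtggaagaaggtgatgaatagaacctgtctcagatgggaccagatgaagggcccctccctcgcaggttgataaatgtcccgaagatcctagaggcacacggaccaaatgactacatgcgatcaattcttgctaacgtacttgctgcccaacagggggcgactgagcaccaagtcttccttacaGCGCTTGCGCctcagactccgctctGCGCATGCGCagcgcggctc
Cox6a1 (complex IV, regulatory subunit; chr5:115348909-115349208, minus strand; NRF1 and ETS matches and GC boxes): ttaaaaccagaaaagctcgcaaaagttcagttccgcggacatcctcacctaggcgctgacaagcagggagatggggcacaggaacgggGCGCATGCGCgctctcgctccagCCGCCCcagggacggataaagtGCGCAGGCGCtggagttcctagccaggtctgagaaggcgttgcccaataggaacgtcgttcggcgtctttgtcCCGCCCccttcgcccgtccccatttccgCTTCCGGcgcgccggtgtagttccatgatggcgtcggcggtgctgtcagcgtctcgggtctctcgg
Atp5g3 (complex V, c subunit of the membrane rotor; chr2:73911277-73911576, minus strand; NRF1 and ERR matches): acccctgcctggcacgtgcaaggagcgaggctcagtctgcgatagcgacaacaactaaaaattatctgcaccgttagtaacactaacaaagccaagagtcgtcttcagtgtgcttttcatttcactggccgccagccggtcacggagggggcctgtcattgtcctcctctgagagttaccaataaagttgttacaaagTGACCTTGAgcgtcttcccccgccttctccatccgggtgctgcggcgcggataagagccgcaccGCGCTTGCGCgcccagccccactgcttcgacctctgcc

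A promoter was found for 67 of the 82 members. The NRF1 motif was present in 17 of the 67 (25.4%), against 5.19% of the 27025 genes with a promoter in the table, and the ETS motif in 25.4% of members against 9.93% of genes. The YY1 motif was present in 14.9% of members against 3.19% of genes, and at least 1 of the 3 motifs in 38 members (56.7%) against 16.4% of genes. The ERR motif was in 2 members (2.99%, against 0.466% of genes), and the GC box was in 41.8% of members against 38.2% of genes. These matches describe letters in a fixed window and say nothing of whether a factor binds there. The background took in every gene with a promoter, whether or not it was tested here, whereas nearly all members were tested. The shares were not compared with those of expressed genes alone.

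During RANKL treatment the summed level of the members was lower on every later day than on day 0, though not in a steady fall, and the genes of all 5 complexes moved in the same direction. Members made up 3.30 ± 0.28% of plate UMIs other than rRNA on day 0, 2.63% on day 1, 2.75% on day 2, 2.75% on day 3, 2.56% on day 4, 1.94% on day 5, 1.78 ± 0.09% on day 6, 2.29% on day 7, 2.12% on day 8 and 1.79% on day 9 (means, SD where given, n = 3 plates a day). The plates of day 6 ran from 1.67% to 1.85% and those of day 0 from 3.13% to 3.61%, so they did not overlap. With rRNA counted, the level was 1.62 ± 0.12% on day 6 and 3.04 ± 0.34% on day 0. The rRNA share averaged 8.79% on day 6 and 7.94% on day 0, and its part in the level was not tested. A sum over members was given no test. Since the sum is a share of the RNA of all sorted cells, fewer cells of a type and less RNA per cell cannot be told apart.

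**Figure D1:**
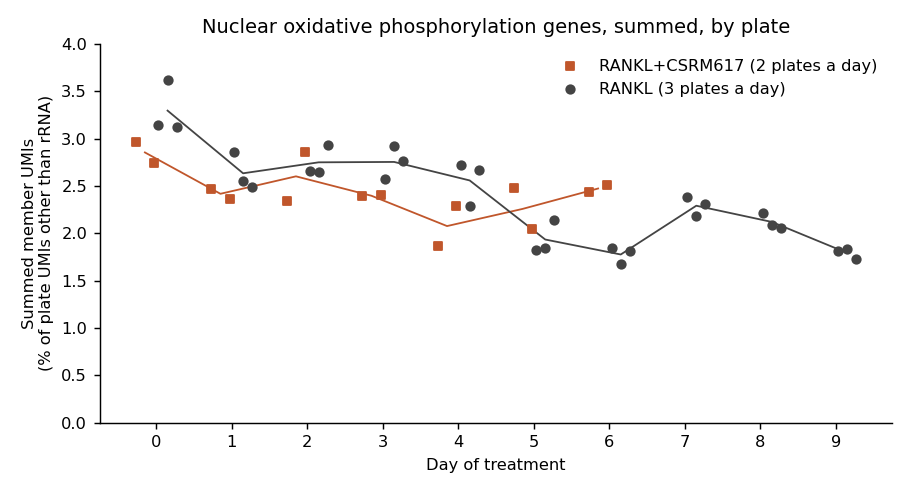
Summed UMIs of the members as a percent of plate UMIs other than rRNA (vertical axis) by day of treatment (horizontal axis); each point is 1 plate, squares are RANKL+CSRM617, circles are RANKL, and lines join the means of a day. RANKL plates lie at 1.67% to 1.85% on day 6 and at 3.13% to 3.61% on day 0, and the RANKL+CSRM617 plates lie at 2.44% and 2.51% on day 6. Percents are over the genes of each arm's own table.

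The shares of the complexes in the sum moved less than the sum itself. On day 6, complex I gave 25.5 ± 0.05% of member UMIs, complex II 4.94 ± 0.47%, complex III 8.63 ± 0.05%, complex IV 22.1 ± 0.42% and complex V 38.8 ± 0.07%. On day 0, the shares were 22.9 ± 0.81%, 4.74 ± 0.46%, 9.02 ± 0.20%, 22.3 ± 0.99% and 41.0 ± 1.22% in the same order of complexes (SD, n = 3 plates each). Complex I took a larger part on day 6 and complex V a smaller one, with no overlap of plates and no test. A few genes carried much of the sum, with Atp5g3 at 12%, the ATP synthase alpha subunit gene Atp5a1 at 7.15% and the complex IV gene Cox8a at 4.54% of all member UMIs of the arm, and 13 genes made up 51.1%. These shares count 3' ends and do not rank protein amounts.

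On day 6 of RANKL, 71 of the 79 members tested were lower than on day 0 and 0 were higher at an adjusted p under 0.05 (edgeR's quasi-likelihood test, adjusted over 10000 genes), where 19.4% of all genes tested were called lower and 18.9% higher. The median log2 fold change of the members was -0.94, against 0.04 over all genes. The falls included 32 of 37 members of complex I, 4 of 4 of complex II, 8 of 8 of complex III, 11 of 12 of complex IV and 16 of 18 of complex V. Every day 6 plate lay below every day 0 plate for 70 of the 79 members, where this held for 20.2% of all genes. Of the 82 members, 3 were not tested because they were nearly absent, namely Cox6b2, Ndufa11b and Ndufa4l2, none above 1 CPM on any plate. With total-count scaling the share of higher genes among all genes called was 63.6% in place of 49.5%, and the median of all genes was 0.22.

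Complex I, the entry point for NADH, had a median change of -0.90 on day 6, against -0.94 to -1.06 in the other complexes, a difference that was not tested. Ndufv3 (GENCODE M21, GRCm38, chr17:31520115-31531331, plus strand), an accessory subunit of the NADH-oxidising module, had 66.2, 65.2 and 60.05 CPM on the day 6 plates, against 145, 276 and 164 CPM on the day 0 plates. The groups did not overlap, and the log2 fold change was -1.45 ± 0.21 (SE, n = 3 plates each; edgeR adjusted p = 8.1e-07). Ndufs8, which binds iron-sulphur clusters on the path of electrons to quinone and whose promoter is shown above, had 45.0, 26.9 and 54.0 CPM on day 6, against 130, 135 and 79.0 CPM on day 0 (log2 fold change -1.36 ± 0.26, edgeR adjusted p = 5.6e-05). Ndufa4 had 381, 271 and 305 CPM on day 6, against 703, 648 and 557 CPM on day 0 (log2 fold change -0.99 ± 0.15, edgeR adjusted p = 1.9e-06). The core subunit gene Ndufs1 changed by -0.54 ± 0.21 (edgeR adjusted p = 0.039), among the smaller falls that passed the test.

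All 4 genes of complex II, the succinate dehydrogenase that also belongs to the citric acid cycle, fell. Sdha (chr13:74322254-74350280, minus strand), the flavoprotein, had 266, 263 and 233 CPM on day 6, against 554, 558 and 482 CPM on day 0. Day 6 plates of Sdha were tightly grouped and all lay below day 0, with a log2 fold change of -1.06 ± 0.12 (SE, n = 3 plates each; edgeR adjusted p = 1.1e-08). The iron-sulphur subunit Sdhb fell by 1.18 ± 0.20, and the membrane anchors Sdhc and Sdhd fell by 0.91 ± 0.15 and 0.96 ± 0.13 on the log2 scale.

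In complex III, Uqcrq (chr11:53427922-53430831, minus strand), a small subunit of the complex, fell most among members whose mean log2 CPM was at least 5. It had 156, 182 and 180.2 CPM on day 6, against 603, 725 and 716 CPM on day 0. The lowest day 0 plate was above every day 6 plate, and the log2 fold change was -1.97 ± 0.16 (SE, n = 3 plates each; edgeR adjusted p = 8.1e-12). Uqcrc2, a core protein, fell by 1.12 ± 0.15 on the log2 scale. The hinge protein gene Uqcrh, with 465, 411 and 498 CPM on day 6 against 678, 885 and 784 CPM on day 0, had the smallest fall of the complex, at -0.75.

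In complex IV, the 3 genes of the subunit 7a family are given first. Cox7a2 (chr9:79755361-79759878, minus strand), the broadly expressed form of subunit 7a, had 260.4, 250.4 and 265 CPM on day 6, against 703, 731 and 662 CPM on day 0 (log2 fold change -1.43 ± 0.13, SE, n = 3 plates each; edgeR adjusted p = 3.1e-11). Cox7a2l, a relative known for joining complexes III and IV into supercomplexes, had 309.8, 307 and 326 CPM on day 6, against 375, 494 and 399.8 CPM on day 0. Its plates did not overlap. Its fall of 0.39 ± 0.13 (edgeR adjusted p = 0.018) was the smallest of the called members and lost its call in 8 of 14 other settings. On day 9 the change was -0.18 ± 0.13 (edgeR adjusted p = 0.29). Cox7a1, the heart and muscle form, was scarce, with 2.65, 2.07 and 0 CPM on day 6 against 25.8, 12.8 and 16.2 CPM on day 0 (log2 fold change -3.61 ± 0.57, edgeR adjusted p = 3.5e-06).

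Among the other subunits of complex IV, Cox6a1 had 459.9, 436 and 503 CPM on day 6, against 1213, 982 and 1322 CPM on day 0 (log2 fold change -1.35 ± 0.13, SE, n = 3 plates each; edgeR adjusted p = 1.6e-10). Cox5a fell by 1.39 ± 0.16, Cox6b1 by 1.05 ± 0.14, Cox8a by 0.87 ± 0.16 and Cox4i1 by 0.87 ± 0.26 on the log2 scale. The call of Cox4i1 was lost without replicate 1 of day 0 or without replicate 2 of day 6. Cox7c, with 81.2, 150.1 and 172 CPM on day 6 against 112, 282 and 269 CPM on day 0, overlapped between days and did not pass (edgeR adjusted p = 0.195).

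In complex V the rotor c subunit is encoded by 3 genes for the same mature protein. Atp5g3 had 1501, 1246 and 1541 CPM on day 6, against 3522, 4222 and 4242 CPM on day 0 (log2 fold change -1.48 ± 0.12, SE, n = 3 plates each; edgeR adjusted p = 7.0e-12). Atp5g1 (chr11:96068852-96075670, minus strand) had 306, 238 and 292 CPM on day 6, against 874, 821 and 771 CPM on day 0 (log2 fold change -1.56 ± 0.12, edgeR adjusted p = 2.1e-12). Both genes fell to well below their lowest day 0 plate. Atp5g2 was scarce, with 10.6, 44.5 and 31.3 CPM on day 6 against 14.7, 51.3 and 28.6 CPM on day 0, and did not pass the test (0.20 ± 0.48, edgeR adjusted p = 0.78). The catalytic beta subunit gene Atp5b fell by 1.23 ± 0.12 on the log2 scale.

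**Figure D2:**
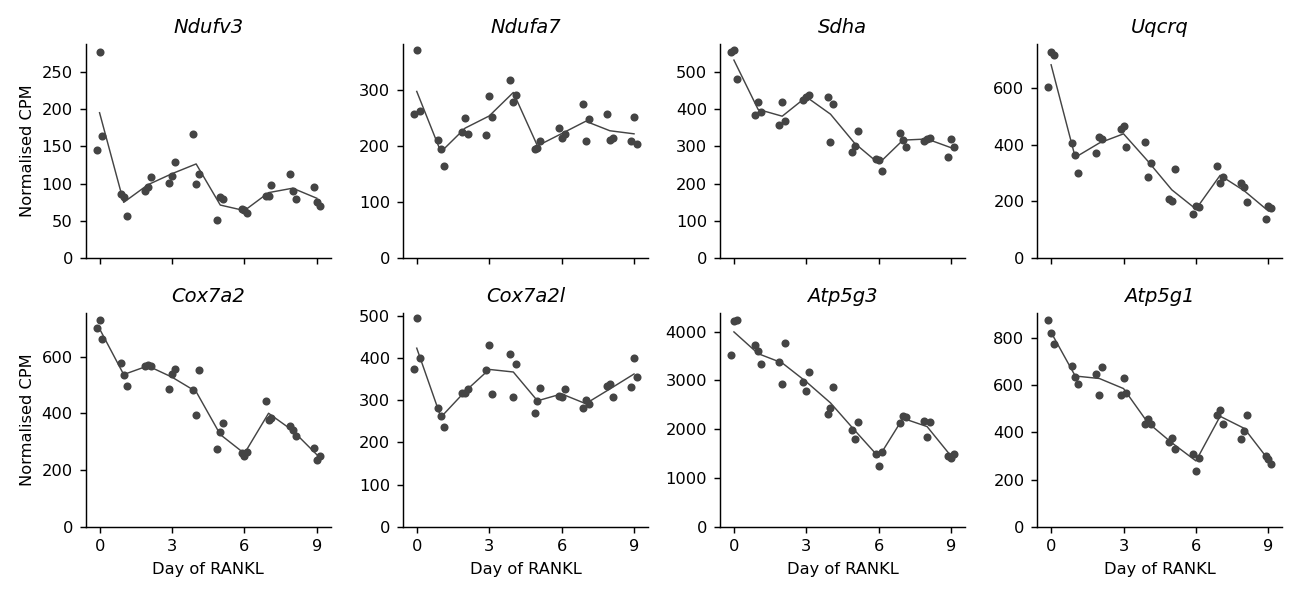
Normalised CPM (vertical axes, linear, from 0) of 8 members by day of RANKL (horizontal axis); each point is 1 plate and lines join the means of a day. Uqcrq, Cox7a2, Atp5g3 and Atp5g1 reach their low levels on days 6 and 9 with higher values on day 7, whereas Cox7a2l is at 307 to 326 CPM on day 6 and 375 to 494 CPM on day 0.

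The 8 members that did not pass on day 6 were Ndufa2, Ndufa7, Ndufab1, Ndufb4, Ndufs5, Cox7c, Atp5g2 and Atp5l, all but Atp5g2 with a negative log2 fold change. For 4 of them the SE was above 0.35, as it was for 2 of the 71 called members, so for these 4 a change of the size of the median was hard to detect. Ndufa2, with 172, 115 and 119 CPM on day 6 against 148, 167 and 155 CPM on day 0, differed by -0.18 ± 0.19 (SE, n = 3 plates each; edgeR adjusted p = 0.49). Ndufa7 had 232, 214 and 221 CPM on day 6 and 258, 372 and 264 CPM on day 0, and its plates did not overlap. Its change of -0.35 ± 0.14 missed the threshold (edgeR adjusted p = 0.057).

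**Figure D3:**
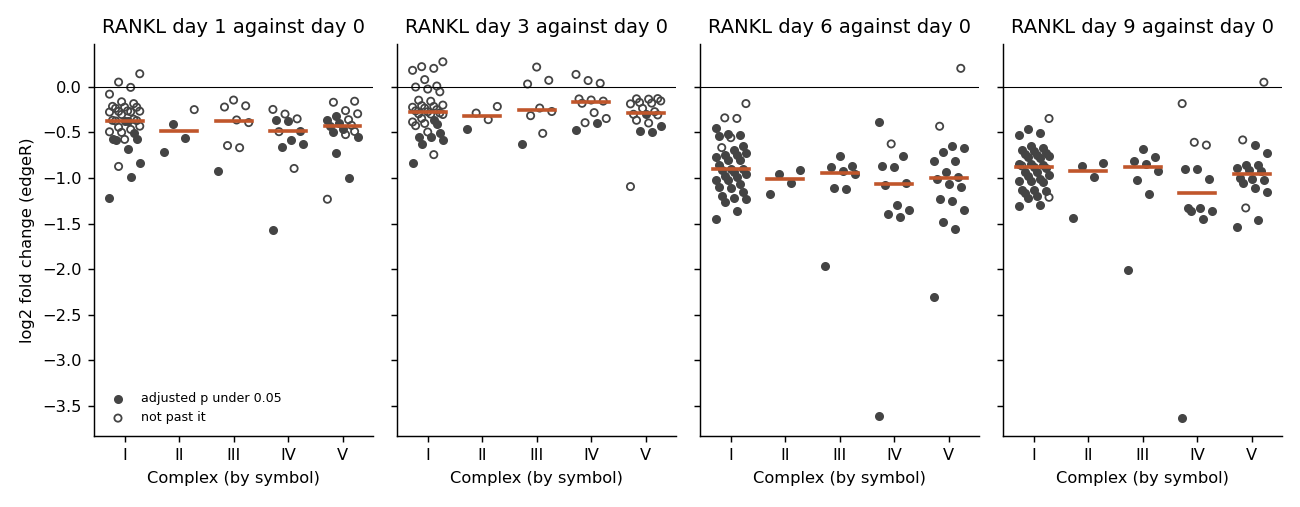
log2 fold change against day 0 of RANKL (vertical axis, edgeR) of each member tested, by complex (horizontal axis), for days 1, 3, 6 and 9; filled points had an adjusted p under 0.05, open points did not, and bars are medians. Nearly all points lie below 0 on days 6 and 9, and the point near -3.6 is Cox7a1.

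The extent of the fall differed by day. On day 1, 30 of 79 members were called lower and 0 higher, where 12.3% of all genes were called lower and 11.4% higher, and the median was -0.39. All plates of day 1 lay below all plates of day 0 for 38 members, against 15.4% of genes. On day 3, 16 members were called lower and 0 higher (median -0.27), where 10.2% of all genes were called lower and 10.2% higher, and 27 members had no overlap with day 0 in the lower direction, against 15.2% of genes. Under total-count scaling the share of higher among all genes called on day 3 was 60.8% in place of 50.1%. The counts of these early days depended on single plates. On day 1, 12 and 10 members were called without its replicate 2 or 3. On day 3 there were 8 and 9 without replicate 1 or 3 of day 0 and 7 and 6 without replicate 1 or 2 of day 3. They also depended on the processing, with 12 on day 1 and 5 on day 3 after cells were thinned to equal UMIs, and 13 and 7 under total-count scaling. For day 3 there were 10 with no filter and 5 with only the plates of the days compared. Thinning left 50 members lower on day 6 and 49 on day 9.

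The comparisons of days 2, 4, 5, 7 and 8 were added after the values by day were seen. They called 18 members lower on day 2 (11.2% of genes), 26 on day 4 (11.4%), 69 on day 5 (17.2%), 56 on day 7 (16.5%) and 63 on day 8 (17.8%), and 0 higher on any of them. The background of genes called higher on these days was 10.3%, 10.1%, 17.2%, 16.5% and 17.3%. On day 2 the count was 6, 7 and 8 without replicate 1 of day 0, replicate 1 of day 2 or replicate 2 of day 2, and on day 4 it was 17 without replicate 1 of day 0. With cells thinned to equal UMIs the counts were 6, 9, 43, 27 and 34 for days 2, 4, 5, 7 and 8, and under total-count scaling 9 for day 2 and 37 for day 7. With only the plates of the days compared there were 8 for day 2 and 10 for day 4, and with no filter 11 for day 2. On day 9, 70 of 79 were lower and 0 higher (18.4% of genes lower, 18% higher), with a median of -0.92, and 71 members had no overlap with day 0, against 20% of genes. Under total-count scaling the share of higher among all genes called became 60.3%, 61.5% and 64.2% for days 7, 8 and 9, in place of 50.0%, 49.3% and 49.4%. The lowest mean fell on day 6 for 32 members, day 9 for 27, day 5 for 11, day 8 for 7 and day 1 for 2, and the highest fell on day 0 for 63.

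The members called lower on day 1 included Ndufv3, Atp5d, Ndufa6, Uqcrq and the scarce Cox7a1 (-1.57 ± 0.42). Ndufa6, a complex I accessory subunit, had 315.5, 241 and 268 CPM on day 1, against 499, 584 and 564 CPM on day 0 (log2 fold change -0.98 ± 0.13, SE, n = 3 plates each; edgeR adjusted p = 4.0e-07). Ndufv3 changed by -1.22 ± 0.20, the ATP synthase delta subunit gene Atp5d by -1.0 ± 0.21 and Uqcrq by -0.93 ± 0.16 on day 1. Atp5g3, with 3721, 3599 and 3331 CPM on day 1 against 3522, 4222 and 4242 CPM on day 0, overlapped and did not pass (-0.17 ± 0.12, edgeR adjusted p = 0.34). Cox7a2l was at its lowest on day 1, with 281, 262 and 235 CPM against 375, 494 and 399.8 CPM on day 0 (-0.66 ± 0.13, edgeR adjusted p = 0.0002). These comparisons share the day 0 plates, and the difference between days was not tested.

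Between day 6 and day 7 part of the fall was gone, a comparison that was also added after the values were seen. Of 79 members, 21 were higher on day 7 than on day 6 and 0 were lower, where 3.01% of all genes were called higher and 3.29% lower, and the median was 0.35 against 0.02 over all genes. Uqcrq had 323, 265 and 287 CPM on day 7, against 156, 182 and 180.2 CPM on day 6 (log2 fold change 0.76). Atp5g1 had 473, 494 and 435 CPM on day 7, against 306, 238 and 292 CPM on day 6 (0.74), and both genes had no overlap between the days. Under total-count scaling the share of higher among all genes called was 34.3% in place of 47.8%. The count of members was 7 without replicate 2 of day 6, and 13 without replicate 1 or replicate 3 of day 7. It was 5 with cells thinned to equal UMIs and 9 under total-count scaling.

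Related mitochondrial and metabolic lists moved with the members on day 6, each read beside the 19.4% of genes called lower. Of the citric acid cycle and pyruvate dehydrogenase genes, 15 of 19 fell and 0 rose (median log2 fold change -0.73). The malate dehydrogenase gene Mdh2 led them, with 303 ± 39.9 CPM on day 6 against 1313 ± 135 CPM on day 0 (SD, n = 3 plates each; -2.12 ± 0.16, edgeR adjusted p = 9.5e-13). Of fatty acid oxidation genes, 15 of 18 fell and 0 rose (median -1.43), among them Acaa2 (-2.27), Cpt1a (-2.26) and Hadh (-1.85). Of carriers and cytochrome c, 12 of 15 fell and 0 rose (median -0.97). Cycs, which carries electrons from complex III to complex IV, had 92.3 ± 13.7 CPM on day 6 and 264 ± 17.1 CPM on day 0.

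Glycolysis genes, which make ATP outside mitochondria, fell as well, 15 of 19 with 0 higher (median -0.94), including Pfkp (-2.76) and Ldha (-1.58), while the hexokinase gene Hk2 did not pass (0.24 ± 0.21, edgeR adjusted p = 0.40). Genes of mitochondrial maintenance moved less in the median. Of respiratory assembly factors 14 of 40 fell and 3 rose (median -0.43), of mitochondrial ribosomal proteins 28 of 71 fell and 0 rose (-0.43), and of import genes 10 of 21 fell and 0 rose (-0.62).

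Among the known regulators of mitochondrial genes, 4 of 17 fell and 2 rose (median 0.07). Esrra, a nuclear receptor that binds ERR motifs, had 41.7 ± 2.8 CPM on day 6 and 136 ± 17.6 CPM on day 0 (SD, n = 3 plates each; log2 fold change -1.76 ± 0.17, edgeR adjusted p = 3.1e-10). Ppargc1b, a coactivator of that receptor, fell by 0.91 ± 0.24 and the fatty acid receptor gene Ppara by 2.48 ± 0.56 on the log2 scale, and Hnf4a fell by 0.67 ± 0.12. Yy1 (0.48 ± 0.12) and Twnk (0.95 ± 0.26) rose. Nrf1 (0.19 ± 0.21), Gabpa (-0.21 ± 0.20) and Tfam (-0.10 ± 0.16), which are known activators of respiratory or mitochondrial genes, did not pass, with edgeR adjusted p-values of 0.49, 0.42 and 0.67. Ppargc1a, Esrrg and Pdk4 were too scarce to be tested.

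The make-up of the plates changed over the same days. All 12 enterocyte markers tested fell on day 6 (median -2.40), and their summed level was 1374 ± 160 CPM on day 6, with 1 of 13 at 0, against 8450 ± 903 CPM on day 0, with 0 of 13 at 0. Stem cell markers rose in 6 of 7 (median 1.06) and summed to 11143 ± 1477 CPM on day 6 against 3349 ± 379 CPM on day 0, with 0 of 8 at 0 on both days. M cell markers rose in 6 of 9 and summed to 2428 ± 356 CPM, with 1 of 12 at 0, against 1232 ± 131 CPM, with 4 of 12 at 0. Cells in the clusters named M cell-like below numbered 403 on day 3 and 23 on day 6. Cycling markers rose in 4 of 14 and fell in 2, goblet and Paneth markers rose in 3 of 12 and fell in 1, tuft markers rose in 2 of 3, and 0 of 3 enteroendocrine markers passed (1 had an unadjusted p under 0.05), where 18.9% of genes were called higher and 19.4% lower. The part of these shifts in the members' result was not tested.

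The members' share of UMIs within cell classes did not move in one direction over the days. Cells were clustered without the member genes, and classes were named from marker genes, so the values are descriptions without tests. No named class had enough cells for a value on both day 0 and day 6. The change between day 0 and day 6 was therefore not measured within any named class. The unnamed clusters had both values, with 2.90 ± 0.31% on day 0 and 1.65 ± 0.14% on day 6 (SD over 3 plates, rRNA included). These clusters were pooled, and their mix on each day was not compared. Cycling-like cells had 2.32 ± 0.12% of their UMIs in members at day 1, 2.5 ± 0.32% at day 2, 2.61 ± 0.14% at day 3, 2.10 ± 0.34% at day 4 (2 plates) and 1.7 ± 0.31% at day 5 (SD over 3 plates unless stated; rRNA included). For days 6, 7, 8 and 9 the share was 1.73 ± 0.14%, 2.06 ± 0.23%, 1.90 ± 0.13% and 1.68 ± 0.07%. Without rRNA it was 2.76%, 1.88%, 2.30% and 1.85% for days 3, 6, 7 and 9. Different clusters held most cycling-like cells, with 113 of 125 in 1 cluster on day 3 and 105 of 172 in another on day 6. For stem-like cells the share was 2.25 ± 0.38% at day 4, 1.49 ± 0.35% at day 5, 1.60 ± 0.12% at day 6, 1.95 ± 0.27% at day 7, 1.82 ± 0.14% at day 8 and 1.64 ± 0.11% at day 9. Here too the clusters differed: cluster 2 held 50 of 59 stem-like cells on day 4 and 206 of 368 on day 7, and cluster 1 held 116 of 222 on day 6 and 132 of 195 on day 9.

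The enterocyte-like class held 3.26 ± 0.43% at day 0, 2.5 ± 0.28% at day 1, 2.15 ± 0.40% at day 2, 2.39 ± 0.27% at day 3 and 1.71 ± 0.26% at day 5 (SD over 3 plates a day), and 2.26 ± 0.40% at day 8 (2 plates). On day 0, 234 of 237 of them were in a cluster led by Fabp1, and on day 3, 192 of 195 were in a cluster led by Apoa4, so the name covers different cells by day. M cell-like cells held 2.62 ± 0.17% on day 1, 2.65 ± 0.23% on day 2 and 2.75 ± 0.22% on day 3. A cluster led by Id3 held 218 of 283 of them on day 1 and 243 of 403 on day 3. It had 3 M cell markers among its top 50 genes and 2.57% of its UMIs in members. The other M cell-like cluster had 6 such markers and 2.80%. Goblet and Paneth-like cells held 1.12 ± 0.17% at day 5, 1.58 ± 0.33% at day 7, 1.48 ± 0.14% at day 8 and 1.20 ± 0.12% at day 9. The secretory classes were lower at 1.17 ± 0.14% for goblet and Paneth-like cells and 1.02 ± 0.10% for enteroendocrine-like cells on day 6, where stem-like cells had 1.60 ± 0.12% and unnamed clusters 1.65 ± 0.14%. Median UMIs per cell on day 6 were 2011 in goblet and Paneth-like, 2078 in enteroendocrine-like and 5247 in cycling-like cells, and the part of depth in these levels was not tested.

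**Figure D4:**
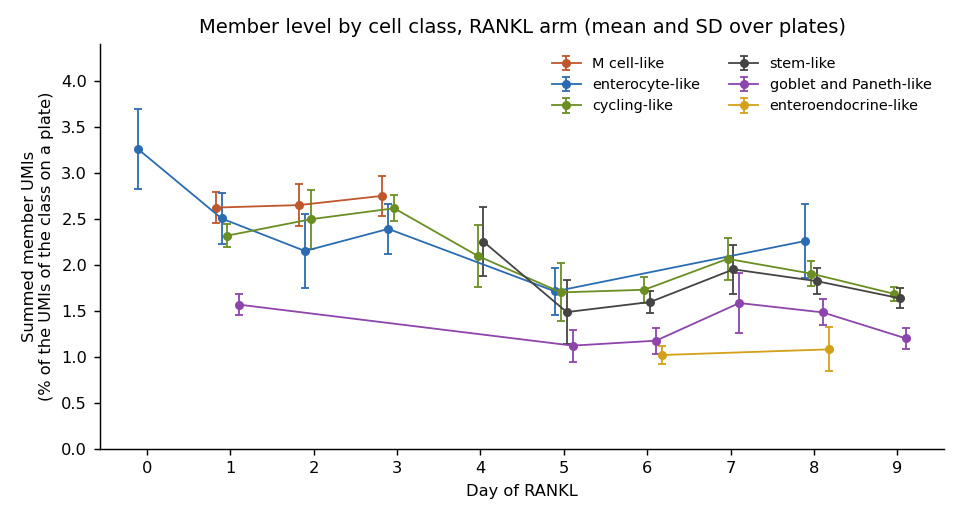
Summed member UMIs as a percent of the UMIs of a cell class (vertical axis, rRNA included) by day of RANKL (horizontal axis); points are means over plates with at least 10 cells of the class, bars are SD, and days with fewer than 2 such plates are left out. Cycling-like cells lie at 2.61% on day 3 and 1.73% on day 6, and the goblet and Paneth-like and enteroendocrine-like classes lie lowest on day 6.

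With CSRM617 the members' level at day 6 stayed nearer to its own day 0. The summed level without rRNA was 2.85% on day 0 (2.74% and 2.97%), 2.42% on day 1, 2.60% on day 2, 2.40% on day 3, 2.08% on day 4, 2.26% on day 5 and 2.47% on day 6 (2.44% and 2.51%), with n = 2 plates a day. Both day 6 plates were below both day 0 plates in this sum and above the highest RANKL day 6 plate (1.85%). These levels use the genes of each arm's own table. Over the genes in both tables, the RANKL means were 3.41% on day 0 and 1.85% on day 6 (1.74% to 1.92%). With rRNA counted, the highest RANKL day 6 plate was at 1.75%. Counted so, the RANKL+CSRM617 plates were at 1.77% and 2.08% on day 6 and at 1.86% and 2.85% on day 0, which overlapped. The plates were small on day 6, with 53 and 55 cells against 240 to 267 in the RANKL arm, and the part of this in the level was not tested. Their rRNA share averaged 22.3%, against 8.79% in the RANKL arm, and its part was not tested either.

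Tests within the RANKL+CSRM617 arm called few members. On day 6, 0 of 76 members tested were lower and 0 higher with edgeR and with DESeq2, where 2.95% of genes were called lower and 4.55% higher by edgeR, and 5 members had an unadjusted edgeR p under 0.05. The members' median log2 fold change was -0.20, against -0.04 over all genes, and their median SE was 0.33, where it was 0.18 in the RANKL arm. All plates of day 6 lay below those of day 0 for 27 members, against 28% of genes, and above for 2, against 23.9%. On day 1, 2 members were lower and 0 higher (2.29% of genes lower, 2.08% higher), namely Ndufv3 at -1.01 ± 0.29 (SE, n = 2 plates each; edgeR adjusted p = 0.045) and Uqcrq at -0.94 ± 0.25 (edgeR adjusted p = 0.030).

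On day 3, 2 were lower and 0 higher (7.96% of genes lower, 10% higher), namely Ndufb4 at -1.15 ± 0.40 (SE, n = 2 plates each; edgeR adjusted p = 0.047) and Atp5g1 at -0.70 ± 0.22 (edgeR adjusted p = 0.033). Without any 1 plate of the days compared, the count was 0 or 1 on day 1 and 0 on day 3, and under total-count scaling the share of higher among all genes called on day 1 was 67.7% in place of 47.5%.

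The change from day 0 to day 6 differed between the arms for part of the members. For 19 of 77 members the change was higher with CSRM617 than with RANKL alone and for 0 it was lower, where 7.1% of all genes were called higher and 4.24% lower (edgeR, interaction of arm and day, adjusted over 8766 genes in both tables). The median difference was 0.69 on the log2 scale, against -0.06 over all genes. The calls included 6 of 12 members of complex IV, 5 of 8 of complex III, 2 of 4 of complex II, 4 of 17 of complex V and 2 of 36 of complex I. The share in complex I was close to that of all genes, so its count is not a result about that complex. With cells thinned to equal UMIs 6 members were called. With total-count scaling 7 members were called, the median of all genes was -0.35 and the share of higher among all genes called was 39.4% in place of 62.6%. The count became 11 without replicate 2 of RANKL+CSRM617 day 0 or replicate 1 of its day 6, and 12 without replicate 2 of its day 6.

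Cox7a2 had 587 and 568 CPM on RANKL+CSRM617 day 6 against 609.8 and 528 CPM on its day 0, and 249, 240.4 and 256 CPM on RANKL day 6 against 679, 748 and 628 CPM on its day 0 (CPM scaled over both arms). The plates with CSRM617 overlapped between the days and those with RANKL alone did not, and the difference of the changes was 1.47 ± 0.24 (SE, n = 2 and 3 plates a day; edgeR adjusted p = 4.1e-05). Atp5g1 had 832 and 586 CPM on RANKL+CSRM617 day 6 against 907 and 719.9 CPM on its day 0, and 293, 228 and 281 CPM on RANKL day 6 against 844, 839 and 731 CPM on its day 0 (difference 1.38 ± 0.23, edgeR adjusted p = 5.7e-05). Atp5g3 gave a difference of 1.37 ± 0.23 (edgeR adjusted p = 6.4e-05).

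The largest difference, 1.63 ± 0.33 (SE; edgeR adjusted p = 0.00068), was that of Ndufc1, a small complex I subunit with 219 and 288 CPM on RANKL+CSRM617 day 6 against 206 and 146 CPM on its day 0, and with 119, 93.4 and 135 CPM on RANKL day 6 against 269, 282 and 223 CPM on its day 0. Cox5a followed at 1.50 ± 0.31, the supernumerary ATP synthase gene Atp5k at 1.40 ± 0.41, Uqcrc2 at 1.30 ± 0.31, Ndufb6 at 1.23 ± 0.36, Uqcrq at 1.19 ± 0.33, Cox6b1 at 1.16 ± 0.25, Sdha at 1.10 ± 0.25 and Sdhc at 1.05 ± 0.28. Of the named genes, Ndufc1, Cox5a, Atp5g1 and Atp5g3 kept their calls in all 19 other settings, Cox7a2 lost it in 1, and Ndufb6 and Cox8a lost theirs in 7. Cox7a2l showed no call (0.40 ± 0.27, edgeR adjusted p = 0.39).

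**Figure D5:**
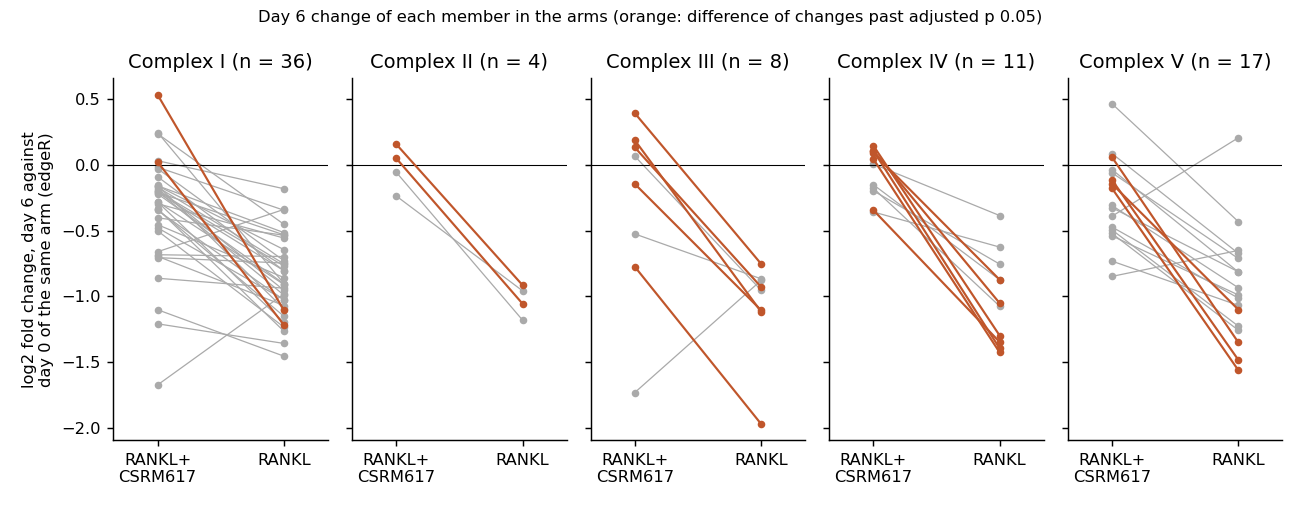
log2 fold change of day 6 against day 0 of the same arm (vertical axis, edgeR) for each member tested in both arms, by complex, with RANKL+CSRM617 on the left and RANKL on the right of each panel and a line for each gene. Orange lines mark members whose difference of changes had an adjusted p under 0.05, and on the right all of them lie at -0.75 or lower.

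On days 1 and 3 the difference of changes called 0 of 77 members with edgeR (2 and 4 with an unadjusted p under 0.05) and 0 with DESeq2, where edgeR called 0.308% of genes higher and 0.057% lower on day 1, and 3.82% and 1.64% on day 3. Under total-count scaling the share of higher among all genes called was 100% on day 1 and 53.8% on day 3, in place of 84.4% and 69.9%. The arms already differed on day 0 for 6 members, all lower with CSRM617 plates, where 7.07% of genes were called lower and 2.75% higher. That share of members is close to that of all genes, so the count is not a result about the members, and it was 2 after cells were thinned to equal UMIs. They were Atp5l (-3.08 ± 0.37), Ndufa13 (-1.67 ± 0.43), Ndufa5 (-0.79 ± 0.25), Cox5a (-0.69 ± 0.20), Ndufb6 (-0.64 ± 0.21) and Atp5mpl (-0.60 ± 0.18; SE, n = 2 and 3 plates). Under total-count scaling the share of higher among all genes called was 12.7% in place of 28%. The count of members was 2 without replicate 2 of RANKL+CSRM617 day 0 and 3 without replicate 2 of RANKL day 0. The lower day 0 was general: 65 of 77 members were below 0, 25 had an unadjusted edgeR p under 0.05, and the median was -0.32, against 0.00 over all genes. The difference of changes on day 6 (median 0.69) therefore includes this lower start, and set directly between the arms the day 6 median was 0.35.

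Set directly against RANKL day 6, a comparison added after the values were seen, RANKL+CSRM617 day 6 had 20 of 77 members higher and 1 lower, where 9.55% of genes were called higher and 8.05% lower. Both plates with CSRM617 lay above the 3 RANKL plates for 42 members, against 24.4% of genes, and below them for 6, against 30.6%. Atp5g1 differed by 1.40 ± 0.17 (SE, n = 2 and 3 plates; edgeR adjusted p = 1.1e-07), Cox7a2 by 1.21 ± 0.18, Sdha by 1.19 ± 0.18, Ndufc1 by 1.12 ± 0.26, Atp5g3 by 1.06 ± 0.16 and Cox6a1 by 1.03 ± 0.20. The gene called lower was Atp5l at -2.22 ± 0.55. The members' median was 0.35 under TMM and turned to -0.06 under total-count scaling, where the median of all genes was -0.46 in place of -0.05 and the share of higher among all genes called 22.5% in place of 54.2%. The count of higher members was 9 and 12 without replicate 1 or 2 of RANKL+CSRM617 day 6, and the call of Atp5l was lost without replicate 1. Higher members numbered 12 and lower ones 2 after thinning, 6 were higher under total-count scaling, and with the suffix L1 to L5 of the plate labels as a term 12 were higher and 0 lower.

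The other lists are read beside the 7.1% of genes called higher and 4.24% called lower. In the difference of changes on day 6, 8 of 17 citric acid cycle genes were higher and 0 lower (Mdh2 at 1.96 ± 0.27 and Idh3a at 1.45 ± 0.29). Likewise 7 of 15 carriers and cytochrome c (Cycs at 1.50 ± 0.32) were higher, with 5 of 19 glycolysis genes (Pfkp at 3.37 ± 0.32 and Ldha at 1.60 ± 0.25), 4 of 16 fatty acid oxidation genes and 3 of 36 assembly factors, the last close to the share of all genes. Mitochondrial ribosomal proteins (0 of 65; median 0.05) and import genes (0 of 20; median -0.16) had no call in either direction. Of the regulators, 2 of 16 were higher and 1 lower, with Esrra at 2.08 ± 0.45 (SE; edgeR adjusted p = 0.0015), Hnf4a at 0.84 ± 0.22 and Myc at -1.37 ± 0.40, and Esrra had 93.5 ± 20.7 CPM on RANKL+CSRM617 day 6 against 40.1 ± 2.8 CPM on RANKL day 6 (SD, n = 2 and 3 plates).

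Cell markers moved with this difference too. Enterocyte markers were higher in 9 of 12 (median 3.78), and summed to 4764 ± 1093 CPM on RANKL+CSRM617 day 6, with 1 of 13 at 0, against 4383 ± 272 CPM on its day 0, with 0 of 13 at 0. Stem markers were lower in 6 of 7 (median -2.59) and summed to 1822 ± 188 CPM, with 1 of 7 at 0, against 4168 ± 634 CPM, with 0 of 7 at 0. Cycling markers were lower in 12 of 13 (median -2.77) and summed to 763 ± 61.2 CPM, with 1 of 13 at 0, against 3594 ± 423 CPM, with 0 of 13 at 0. M cell markers were higher in 4 of 10, enteroendocrine markers in 2 of 3, goblet and Paneth markers in 1 of 13 and tuft markers in 0 of 3, where 7.1% of genes were called higher. Their part in the members' result was not tested.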

How the data were processed

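Single cells sorted into 384-well plates were profiled by a variant of CEL-Seq2, a 3' end method with UMIs. The deposited values are raw UMI counts per gene and cell; the submitters' processing notes name kallisto, bustools, Seurat 3.1.5 and build GRCm38. Wells with at least 1000 UMIs were kept (6558 of 6636 for RANKL and 1673 of 1903 for RANKL+CSRM617), their counts were summed per plate, and 0 columns lacked a sample. Plate sums were tested with edgeR 4.0.16 (R 4.3.3; filterByExpr, TMM, quasi-likelihood, Benjamini-Hochberg adjustment over all genes tested), with 1 fit per arm over all its days and 1 joint fit of days 0 to 6 on genes in both tables for comparisons between arms. CPM are TMM-scaled. DESeq2 1.42.0 was an alternative. The edgeR step was first tested on simulated data. Cells were clustered without the members in scanpy 1.11.5 (2000 variable genes, 30 components, 15 neighbours, Leiden resolution 1), and a cluster was named where 3 or more markers of a class were among its top 50 genes; doublets were not removed. Gene positions are from GENCODE M21 on GRCm38.

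Named by rule were, in each comparison, up to 2 called members per complex and direction with the largest change and a mean log2 CPM of at least 5, the 4 Sdh genes, the isoform families Cox4i, Cox6a, Cox6b, Cox7a, Cox8, Ndufa4 and Atp5g, up to 3 called genes of each other list, and a set of regulators and metabolic genes. Other genes with values, among them the members not called on day 6, Hnf4a, Uqcrh and Ndufs1, were chosen after their values were seen. The members, lists and comparisons were chosen with earlier results of these data known. Comparisons of days 2, 4, 5, 7 and 8 with day 0, of day 7 with day 6, and between arms on day 6 were added after values were seen. Some items are not reported here.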

Additional observations from a re-analysis of the deposited data

Results flagged for a closer look

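For 19 members the change from day 0 to day 6 differed between RANKL+CSRM617 and RANKL by the interaction of arm and day (edgeR, adjusted p under 0.05), in each case higher with CSRM617. Of the named ones, the difference was 1.63 for Ndufc1, 1.50 for Cox5a, 1.47 for Cox7a2, 1.40 for Atp5k, 1.38 for Atp5g1, 1.37 for Atp5g3 and 1.30 for Uqcrc2 on the log2 scale. It was 1.23 for Ndufb6, 1.19 for Uqcrq, 1.16 for Cox6b1, 1.10 for Sdha, 1.05 for Sdhc, 0.99 for Cox6a1 and 0.95 for Cox8a. Arm and plate set cannot be told apart in these comparisons.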

How the results depend on the processing

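The counts of members lower on days 6 and 9 of RANKL stayed within 1.5 times under all settings run. The numbers of members called lower changed as follows. Total-count scaling gave 13 on day 1, 9 on day 2, 7 on day 3 and 37 on day 7 of RANKL. Cells thinned to equal UMIs gave 12 on day 1, 6 on day 2, 5 on day 3, 9 on day 4, 43 on day 5, 27 on day 7 and 34 on day 8. With no filter there were 11 on day 2 and 10 on day 3, and with only the plates of the days compared 8 on day 2, 5 on day 3 and 10 on day 4. Members higher on day 7 than on day 6 numbered 9 with total-count scaling and 5 after thinning. In the RANKL+CSRM617 arm, the count lower on day 1 was 1 with DESeq2, the block or only those days, and 0 with total-count scaling; on day 3 it was 1 with DESeq2, all wells, no top gene, the block, crossed numbers or only those days, and 0 with total-count scaling, no filter, thinning or the label suffix as a term, while only those days gave 1 higher. The difference on day 6 called 7 with total-count scaling and 6 after thinning. Between arms on day 0, 2 were lower after thinning or with only those plates. Between arms on day 6, 6, 12 and 12 were higher with total-count scaling, thinning and the suffix term, and 2 and 0 were lower with thinning and the suffix term. Without the top gene the summed level reached 2.63%, 1.78% and 1.79% for days 1, 6 and 9 of RANKL, and 2.42%, 2.40% and 2.47% on days 1, 3 and 6 of RANKL+CSRM617. The cause of these changes was not tested.

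Leaving out 1 plate gave 10 to 32 members lower on day 1, 6 to 18 on day 2 and 6 to 15 on day 3. There were 17 to 28 on day 4, 63 to 69 on day 5 and 59 to 68 on day 6. Days 7, 8 and 9 gave 38 to 52, 49 to 60 and 55 to 70. Leaving out 1 plate also gave 7 to 18 members higher on day 7 than day 6. It gave 0 to 1 lower on day 1 and 0 to 0 on day 3 of RANKL+CSRM617, 11 to 21 higher in the difference on day 6, 2 to 9 lower between arms on day 0, and 9 to 20 higher and 0 to 1 lower on day 6. Of the values of named members under other settings, 2386 kept their side of the threshold, 376 lost the call and 0 changed direction. Correlations of same-numbered plates were -0.26 to 0.25 in the RANKL arm, and 0.29, -0.19 and -0.03 on days 1, 3 and 6 of RANKL+CSRM617, so the numbers were not treated as pairs. The same-numbered RANKL+CSRM617 plates of days 0 and 1 also share a label suffix (L1 for replicate 1, L3 for replicate 2), whose meaning the labels do not give. On day 3 the suffix L1 belongs to replicate 2, and on day 6 L3 belongs to replicate 1. On those days the correlation by number therefore does not follow the suffix. With the replicate block 71 members were lower on day 6 of RANKL. On day 6 the median SE of members was 0.33 with CSRM617 (2 plates, 53 and 55 cells) and 0.18 with RANKL (3 plates); the part of depth in this was not tested.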

Other observations

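Atp5l, a small membrane subunit of the ATP synthase, was at 0 to 45.0 CPM on the 14 RANKL+CSRM617 plates and at 99.8 to 262 CPM on the RANKL plates of days 0 to 6 (CPM scaled over both arms). The ranges did not overlap on any day, day 0 included, and the cause was not tested.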
